A study of Mus musculus with 4 samples.

Results

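The genes described here are the NF-kB, chemokine and cytokine genes of mouse cortical cells: 38 genes listed by name for their role in the NF-kB pathway or as its known products. The rule that lists them uses no measured value. Of the 38 genes, 37 had counts, out of 27487 genes counted in at least 1 of the 4 libraries, and *Il1rn* was not analysed here. They comprised 5 CC chemokines, 4 CXC chemokines, 5 cytokines, 4 NF-kB subunits, 6 proteins of the IkB family, 4 feedback and survival adaptors, 5 surface proteins and 4 other targets. In microglia, 26 of the 37 had at least 100 transcripts counted over the 4 libraries and 11 had between 1 and 90. The question was in which cortical cells these genes were expressed and how they differed with genotype and sex.

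The cells came from the dissected cortex of mice aged 24 weeks, of which the transgenic groups were heterozygous Tg2576 mice, B6;SJL-Tg(APPSWE)2576Kha. These animals carry a human amyloid precursor protein transgene with the Swedish mutation under a hamster prion protein promoter, and the control groups were wild-type littermates. All mice had been anaesthetised and perfused with buffered saline, and the tissue was dissociated with an enzymatic kit before Drop-seq, a droplet method that tags each captured transcript with a unique molecular identifier (UMI). There were 4 groups, female wild-type, female Tg2576, male wild-type and male Tg2576, and each was a single library made from the pooled cells of 9 mice. Values for the 4 libraries are given below in that order. Because each group was 1 library, differences within a sex have no replicate check, and intervals on counts cover counting error only. The p-values quoted come from fits over the 4 libraries, with 1 residual degree of freedom in the main fit. With 1 pool per group, that degree of freedom holds how far the genotype ratio differed between the sexes. It does not measure a spread between replicate pools.

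NF-kB is a family of dimeric transcription factors that wait in the cytoplasm bound to inhibitors of the IkB family. Signals from Toll-like, interleukin-1 and tumour necrosis factor receptors lead to the destruction of the inhibitor, and the freed dimer switches on chemokines, cytokines, adhesion molecules and, as negative feedback, the inhibitors themselves. In the brain, microglia, the resident macrophages of the tissue, are a well known source of these cytokines and chemokines, while endothelial cells and astrocytes also use the pathway.

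The promoters of 5 members are shown because they carry the DNA motif to which NF-kB dimers bind. They belong to the inhibitor gene *Nfkbia*, the growth factor gene *Csf1* and the chemokine genes *Cxcl1*, *Cxcl2* and *Cxcl10*. Being picked for the motif, they do not stand for the members at large. The sequences are RefSeq reference sequence of build GRCm38.p6, written 5′ to 3′ on the strand of the gene, and each ends between 1 and 111 bases before the annotated transcription start. Capitals mark matches, on either strand, to a strict motif, GGGA followed by any base and then TTTCC, or to the looser NF-kB consensus.
*Nfkbia*, chr12:55492648-55492727, minus strand: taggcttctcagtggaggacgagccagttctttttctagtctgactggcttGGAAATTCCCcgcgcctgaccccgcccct
*Csf1*, chr3:107760580-107760659, minus strand: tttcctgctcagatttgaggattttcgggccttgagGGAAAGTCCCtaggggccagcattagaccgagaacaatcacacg
*Cxcl1*, chr5:90891135-90891214, plus strand: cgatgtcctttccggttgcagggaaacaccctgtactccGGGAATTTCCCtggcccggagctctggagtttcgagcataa
*Cxcl2*, chr5:90903769-90903848, plus strand: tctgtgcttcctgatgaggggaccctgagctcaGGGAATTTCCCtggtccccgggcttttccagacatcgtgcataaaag
*Cxcl10*, chr5:92348970-92349069, minus strand: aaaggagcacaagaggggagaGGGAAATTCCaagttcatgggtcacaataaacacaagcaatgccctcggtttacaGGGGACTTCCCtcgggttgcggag
A window from 250 bases before to 50 bases after the start was given for 28 of the 38 listed genes. Some genes had several starts, and a gene was counted where any of its windows held the motif. The strict motif was present for 6 of these 28 genes (21.4%), *Cxcl1*, *Cxcl2*, *Il6*, *Csf1*, *Nfkb2* and *Nfkbia*, and for 0.466% of all 27025 genes with a window. The looser consensus, which includes the strict motif, was present for 15 of the 28 (53.6%) and for 9.55% of all genes. Neither motif was found in the windows of *Ccl3*, *Ccl12*, *Il1a*, *Il1b*, *Tnf*, *Icam1* or *Plek*. A match is a run of letters in a reference sequence and was not measured as a bound site in these cells. Several members also lie side by side in the genome. *Ccl2*, *Ccl7* and *Ccl12* lie on chromosome 11 between 82035577 and 82103399, *Ccl3* (83647843 to 83649378) and *Ccl4* (83648624 to 83664683) overlap on the same chromosome, and *Il1a* and *Il1b* are neighbours on chromosome 2. Reads from overlapping parts of *Ccl3* and *Ccl4* could be assigned to either gene, so the split between the 2 is uncertain.

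Each library held 3000 barcodes and between 1926857 and 2294296 UMIs, and the filters kept between 1010 and 1532 cells per library, 4835 in all. Pairs of libraries shared between 2 and 4 kept barcodes, and a doublet caller marked 92 cells. *Xist* had 1645 and 1445 UMIs in the female libraries and 0 and 3 in the male libraries, and counts named *App*, the gene of the amyloid precursor protein, had levels in astrocytes of 214, 2050, 100.4 and 1524 CPM, the UMIs of a gene per 1000000 UMIs of the cell type and library. Clustering without the members gave 14 clusters, of which 2 were microglial by all 17 listed markers, with 457, 515, 347 and 538 microglia and a median of 1384, 1031, 1405 and 1032 UMIs per microglial cell. Since Drop-seq counts the 3′ ends of transcripts, levels of different genes were not divided by length.

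Members were most abundant in microglia and in a small macrophage-like cluster. The 37 members made up 1.38%, 0.869%, 1.44% and 1.43% of all microglial UMIs in the 4 libraries. The female Tg2576 library was the lowest, and the 3 other libraries lay close together. The 5 members with the most UMIs, *Nfkbia*, *Plek*, *Ccl4*, *Nfkbiz* and *Cd83*, held 63.1% of the members' microglial UMIs. The macrophage-like cluster reached 2.11%, 1.17%, 0.902% and 1.16%. In the other large cell classes the same sum was lower. It ranged from 0.135% to 0.171% in endothelial cells, from 0.0469% to 0.0830% in astrocytes and from 0.0358% to 0.0845% in oligodendrocytes.

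The highest member was *Nfkbia*, which encodes IkB-alpha, the inhibitor that NF-kB itself induces. Its microglial level was 3134, 1941, 3756 and 4173 CPM. *Nfkbiz*, an atypical nuclear IkB protein that co-activates a subset of targets, stood at 1154, 611, 1234 and 1300.4 CPM. In both genes the female Tg2576 library was the lowest, and for *Nfkbia* the female wild-type library also lay below both male libraries. The remaining IkB genes were lower: *Nfkbid* stood at 139, 80.9, 119 and 137 CPM, *Nfkbie* at 98.9, 46.5, 132 and 88.4 CPM and *Nfkbib* at 67.4, 36.1, 88.4 and 95.0 CPM. *Bcl3*, a further nuclear IkB protein, had 23 UMIs in all microglia and *Tnip1*, a partner of A20, had 35.

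**Figure D1:**
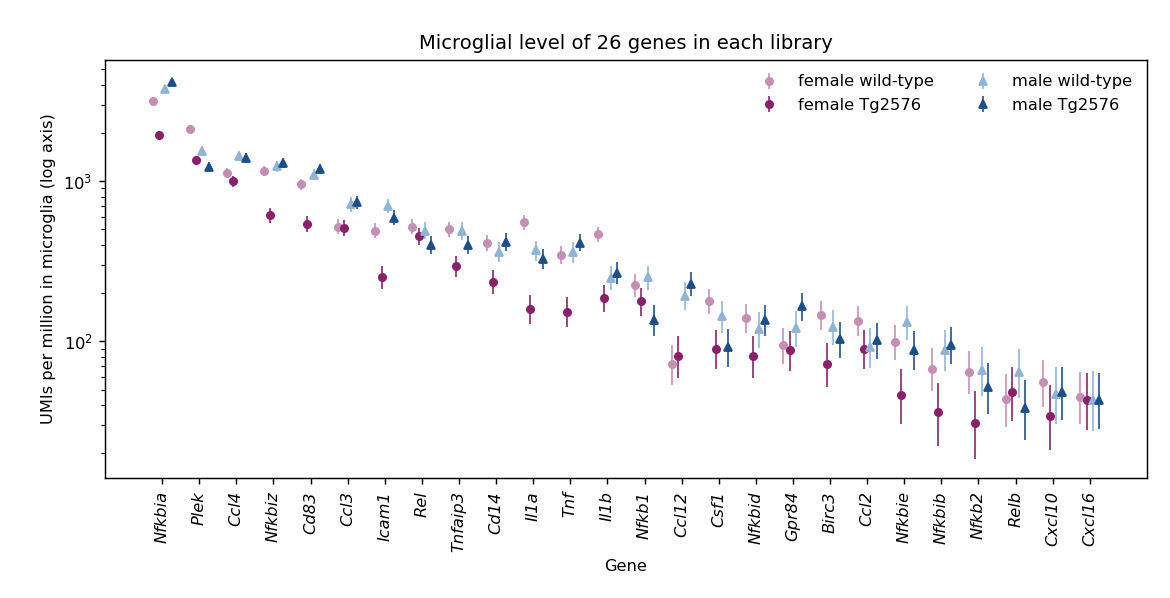
Microglial level of the members with at least 100 UMIs, in CPM on a log axis, with 1 point per library and bars for the exact Poisson 95% interval. The point of the female Tg2576 library is the lowest of the 4 in 21 of the 26 genes, against 22.1% of the 4063 genes with as many UMIs.

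Among the DNA-binding subunits, *Rel*, which encodes c-Rel, was the highest at 519, 451, 491 and 398 CPM. *Nfkb1*, the gene of p105 and p50, stood at 223, 177, 250.3 and 137 CPM. *Nfkb2*, the gene of p100 and p52, stood at 64.4, 31.0, 65.9 and 51.7 CPM and *Relb*, its usual partner, at 43.5, 48.2, 64.0 and 38.3 CPM. *Nfkb1*, *Rel* and *Relb* were lowest in the male Tg2576 library, and *Nfkb2* was lowest in the female Tg2576 library, as the inhibitors were.

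The CC chemokines, which attract monocytes and lymphocytes, were led by *Ccl4* at 1126, 996, 1439.5 and 1394 CPM and *Ccl3* at 520.1, 513, 715 and 735 CPM. In these 2 genes the libraries ordered by sex, with both female libraries below both male libraries. *Ccl12*, a mouse ligand of Ccr2, stood at 71.9, 80.9, 192 and 228 CPM, again with both male libraries above both female ones. *Ccl2*, the main Ccr2 ligand, was low in microglia, at 135, 89.5, 92.2 and 102 CPM. Of the CXC chemokines, *Cxcl10*, an interferon-induced ligand of Cxcr3, stood at 55.5, 34.4, 47.0 and 48.3 CPM and the membrane-bound *Cxcl16* at 45.0, 43.0, 43.3 and 43.3 CPM. *Cxcl1* and *Cxcl2*, attractants of neutrophils, had 1 and 16 UMIs in all microglia, and *Ccl7* had 13.

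The proinflammatory cytokines differed severalfold between libraries. *Il1a*, the gene of interleukin-1 alpha, stood at 553, 158, 369 and 327 CPM. *Il1b*, the gene of interleukin-1 beta, stood at 465, 186, 248 and 268 CPM, and *Tnf* at 348, 153, 359 and 413 CPM. In all 3 the female Tg2576 library was the lowest, and for *Il1a* and *Il1b* the female wild-type library was the highest. *Csf1*, the growth factor on which microglia depend, stood at 178, 89.5, 143 and 91.7 CPM, so that both Tg2576 libraries lay below both wild-type libraries. *Il6* had 28 UMIs in all microglia.

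Of the feedback genes, *Tnfaip3*, which encodes the ubiquitin-editing enzyme A20, stood at 502, 294, 489 and 400.1 CPM and *Birc3*, an inhibitor of apoptosis, at 145, 72.3, 122 and 103 CPM. The surface proteins were led by *Cd83*, an activation marker of antigen-presenting cells, at 955, 540.3, 1095 and 1194 CPM. *Icam1*, an adhesion molecule for leukocytes, stood at 490.1, 251, 698 and 590.2 CPM. *Cd14*, a co-receptor for lipopolysaccharide, stood at 412, 234, 363 and 418 CPM and *Gpr84*, a receptor for medium-chain fatty acids, at 94.4, 87.8, 120.4 and 165 CPM. *Plek*, which encodes the protein kinase C substrate pleckstrin, stood at 2121, 1344, 1541 and 1224 CPM with the female wild-type library highest and the male Tg2576 library lowest. *Tnfaip2* had 90 UMIs, the manganese superoxide dismutase gene *Sod2* 46 and the cyclooxygenase gene *Ptgs2* 12, and *Traf1*, an adaptor of tumour necrosis factor receptors, and *Cd40*, a costimulatory receptor, had 5 and 1.

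The genotypes were compared first within each sex, as the log2 ratio of the CPM of Tg2576 to that of wild-type. With 1 library per group, a difference by genotype cannot be told apart from one between pools. Summed over the 37 members, the ratio was -0.67 (95% interval -0.72 to -0.62) in females and -0.01 (-0.05 to 0.04) in males. In females 19 of 28 members with at least 20 UMIs had a ratio of -0.5 or lower, against 12% of all 7372 genes so measured, and 0 had a ratio of 0.5 or higher, against 15.8%. In males 4 of 27 members had a ratio of -0.5 or lower, against 12.1% of genes, and 0 a ratio of 0.5 or higher, against 16.3%. The 4 were *Csf1*, *Nfkb1*, *Nfkbie* and *Relb*. The median over members was -0.78 in females, where the median over all genes was 0.05, and 0.04 in males, where it was 0.04.

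By role, the ratio in females was lowest for the cytokines, with a summed log2 ratio of -1.38 (-1.56 to -1.20), followed by the surface proteins at -0.81 (-0.95 to -0.67), the feedback adaptors at -0.77 (-1.01 to -0.54) and the IkB family at -0.75 (-0.84 to -0.67). The CC chemokines stood at -0.14 (-0.26 to -0.02) and the subunits at -0.26 (-0.45 to -0.08). In males the subunits had the lowest summed ratio, -0.48 (-0.68 to -0.28), then the other targets with -0.31 (-0.46 to -0.17) and the feedback adaptors with -0.28 (-0.51 to -0.05), while the cytokines stood at -0.01 (-0.17 to 0.15) and the IkB family at 0.12 (0.05 to 0.19). The single cytokines were as follows. *Il1a* had a ratio of -1.80 (-2.15 to -1.47) in females and -0.17 (-0.47 to 0.12) in males. *Il1b* had -1.32 (-1.65 to -1.0015) and 0.11 (-0.23 to 0.45), and *Tnf* had -1.18 (-1.55 to -0.82) and 0.20 (-0.08 to 0.48). For these cytokines the intervals of the sexes do not overlap, but with 1 library per group the difference between the sexes was not tested.

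**Figure D2:**
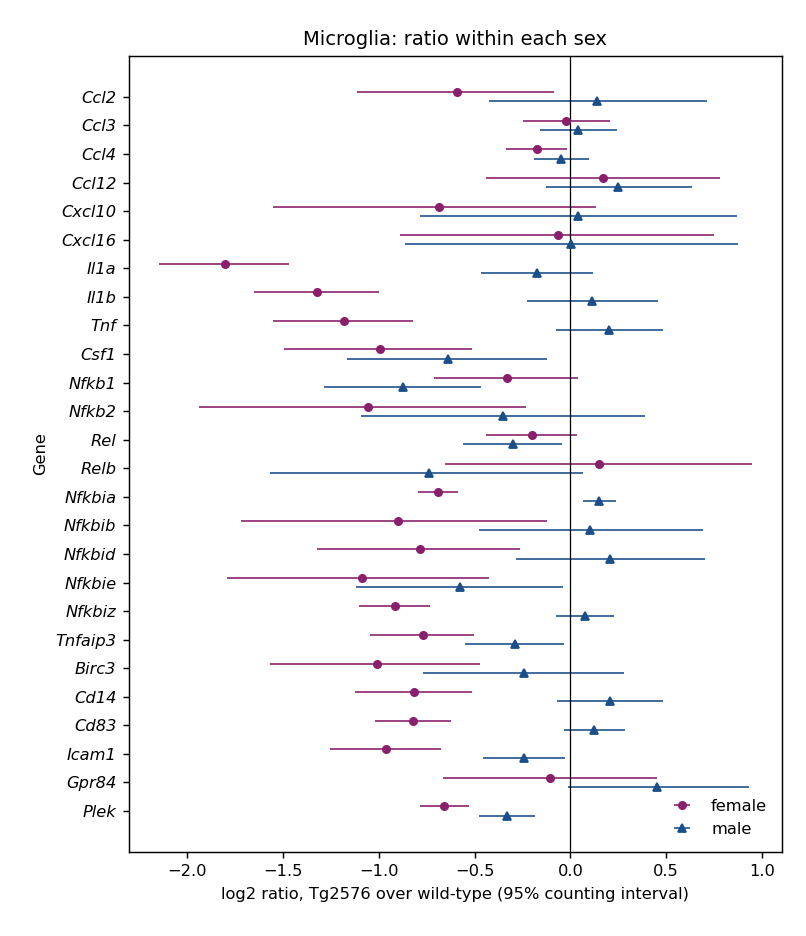
Log2 ratio of Tg2576 to wild-type in microglia for each member with at least 100 UMIs, with 1 point for females and 1 for males and bars for the exact 95% interval of the counts. Female points lie below 0 except those of *Ccl12* (0.17) and *Relb* (0.15), with *Il1a* the lowest at -1.80, while male points lie on both sides of 0, from -0.87 for *Nfkb1* to 0.45 for *Gpr84*.

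A ratio of -0.5 or lower in both sexes was found for 2 of 27 members, *Csf1* and *Nfkbie*, against 2.19% of the 6706 genes measured in both, and a ratio of 0.5 or higher in both for 0 members, against 3.44%. *Csf1* had -0.995 (-1.49 to -0.51) in females and -0.64 (-1.17 to -0.12) in males. *Nfkbie*, which encodes IkB-epsilon, had -1.09 (-1.79 to -0.42) and -0.58 (-1.12 to -0.04). For both genes, neither sex's interval reached 0. *Nfkb1* had the lowest ratio of the members in males, at -0.87 (-1.29 to -0.46), against -0.33 (-0.71 to 0.04) in females.

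The genotype difference shared by the sexes was tested over the 4 libraries with the edgeR quasi-likelihood test. Sex was a covariate, and p-values were adjusted over all 7594 genes by the Benjamini-Hochberg method. Of 29 members tested, 2 were lower in Tg2576, against 0.25% of all genes, and 0 were higher, against 0.0263%. *Il1a* fell by 1.00 on the log2 scale (SE 0.19, edgeR adjusted p = 0.00677), and *Csf1* fell by 0.88 (SE 0.20, edgeR adjusted p = 0.0357). Each SE printed beside an edgeR p-value, here and below, is the estimate divided by the square root of the F statistic. It does not measure a spread between replicate pools. In *Csf1* both sexes had ratios whose intervals lay below 0, whereas in *Il1a* this was so in females only. In all, 13 members had an unadjusted p under 0.05, against 666 of all 7594 genes. Of the 29 estimates, 26 were negative, and the median over the 29 was -0.35 where that of all genes was -0.01. Without the female Tg2576 library the median was -0.09, with 13 positive and 16 negative estimates, and without the male Tg2576 library it was -0.72. DESeq2 called 0 members, and 5 had an unadjusted p under 0.05 there, against 76 of 20633 genes. With genotype alone in the edgeR fit, 0 members were called over the 4 libraries (7 at an unadjusted p under 0.05, against 232 of 7594 genes). The same fit was also made without each library in turn. There, 1 genotype was represented by a lone library assumed to vary like the others, and sex could not be a covariate. The estimate for *Il1a* was then -0.56 without the female Tg2576, -0.64 without the female wild-type, -1.26 without the male wild-type and -1.59 without the male Tg2576 library, and that for *Csf1* lay between -1.04 and -0.69.

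Between the sexes, 7 of the 29 members were higher in males, against 2.28% of all genes, and 0 were lower, against 2.54%. *Ccl12* had the largest difference, 1.44 on the log2 scale (SE 0.20, edgeR adjusted p = 1.3e-06). *Icam1* followed with 0.82 (SE 0.16, edgeR adjusted p = 0.000643). *Nfkbia* and *Tnf* were each higher by 0.66, *Cd83* by 0.64, *Nfkbiz* by 0.56 and *Ccl3* by 0.47, with edgeR adjusted p-values between 0.0106 and 0.0497. The median over the 29 members was 0.19, where that of all genes was 0.01. With sex alone fitted and the female Tg2576 library left out, the members' median was -0.14, with 13 positive and 16 negative estimates. It was 0.60, 0.08 and 0.30 without the female wild-type, male wild-type or male Tg2576 library. DESeq2 called 1 member, *Icam1*, and gave *Ccl12* a log2 difference of 1.42 with an unadjusted p of 0.0001 and no adjusted p. With sex alone in the edgeR fit, *Ccl12* was the 1 member called over the 4 libraries. Fits of sex alone were also made without each library, which leaves 1 sex as a lone library assumed to vary like the other. Without the female Tg2576 library, edgeR called 2 members, *Ccl12* higher and *Il1b* lower in males, and it also called 2 without the male wild-type library (*Ccl12* and *Nfkbia*) or without the male Tg2576 library (*Ccl12* and *Icam1*), and 9 without the female wild-type library. Of the members, only *Ccl12* was called in each of these 4 fits, with log2 differences between 1.32 and 1.53.

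Several properties of the microglial libraries moved with these values. The mitochondrial share of microglial UMIs was 6.95%, 6.74%, 4.88% and 3.48%, so it was higher in both female libraries. A list of 16 immediate early and stress genes, whose transcripts rise quickly when cells are handled or stimulated, summed to 32275, 25975, 39820 and 41870 CPM of microglia. That sum was lowest in the female Tg2576 library, as the sum of the members was. Of the 16, edgeR called 0 by genotype, against 21 of 7594 genes, and 13 estimates were negative. An unadjusted p under 0.05 by genotype was found for 6 of the 16, against 666 of 7594 genes. By sex 10 of the 16 were called, against 366 of 7594 genes. Of these 10, 9 were higher in males, led by *Ier2* at 1.04, and *Hspa1b*, a heat shock gene, was lower at -0.94. DESeq2 called 0 of them by genotype (1 at an unadjusted p under 0.05) and 5 by sex. The part of these properties in the members' differences was not tested. The macrophage marker list held 154, 182, 102 and 107 CPM in microglia, against 2799 to 7475 CPM in the macrophage cluster, and 3 of its 9 genes had no UMI in microglia.

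The 2 microglial clusters differed in nearly every member, although members and wider pathway genes had been left out of the genes used for clustering. Immediate early genes had been kept among them. One cluster was led by *Tnf*, *Il1a*, *Casp4* and *Nfkbiz* and is called the *Tnf* cluster. The other was led by *Hmha1*, *Pag1*, *P2ry12* and *Selplg* and is called the *P2ry12* cluster. In 24 of 26 members the lowest library of the *Tnf* cluster lay above the highest of the *P2ry12* cluster, against 6.47% of 4063 genes, the exceptions being *Ccl12* and *Nfkb1*. As the cells were grouped by correlated genes, this is a description and not a test. Members made up 1.895%, 1.51%, 1.68% and 1.78% of the UMIs of the *Tnf* cluster and 0.425%, 0.395%, 0.455% and 0.313% of those of the *P2ry12* cluster.

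Over pooled libraries, the fold of the *Tnf* cluster over the *P2ry12* cluster had a median of 3.89 over the 26 members. *Nfkbiz* had the highest fold, 13.98, followed by *Il1b* with 9.49, *Cd83* with 9.24 and *Il1a* with 8.19. *Tnf* stood at 7.56, *Tnfaip3* at 6.76, *Csf1* at 6.63 and *Nfkbia* at 5.96, and the lowest fold was the 1.27 of *Nfkb1*. The subunit gene that gives rise to p50 was thus nearly even between the clusters while inhibitors and cytokines were not.

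The balance of the clusters differed between libraries. The *Tnf* cluster held 60.0% (55.3 to 64.5), 37.7% (33.5 to 42.01), 73.2% (68.2 to 77.8) and 69.3% (65.2 to 73.2) of microglia, with exact Clopper-Pearson 95% intervals. Most microglia of the female Tg2576 library thus lay in the *P2ry12* cluster, and most of the other 3 libraries in the *Tnf* cluster. Within the *Tnf* cluster the summed ratio of the members was -0.33 (-0.38 to -0.27) in females and 0.08 (0.04 to 0.13) in males. In females 12 of 27 members had a ratio of -0.5 or lower there, against 14.9% of genes, and in males 2 of 27, *Nfkb1* and *Relb*, against 13.8%. The median over members in this cluster was -0.41 in females and 0.06 in males.

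**Figure D3:**
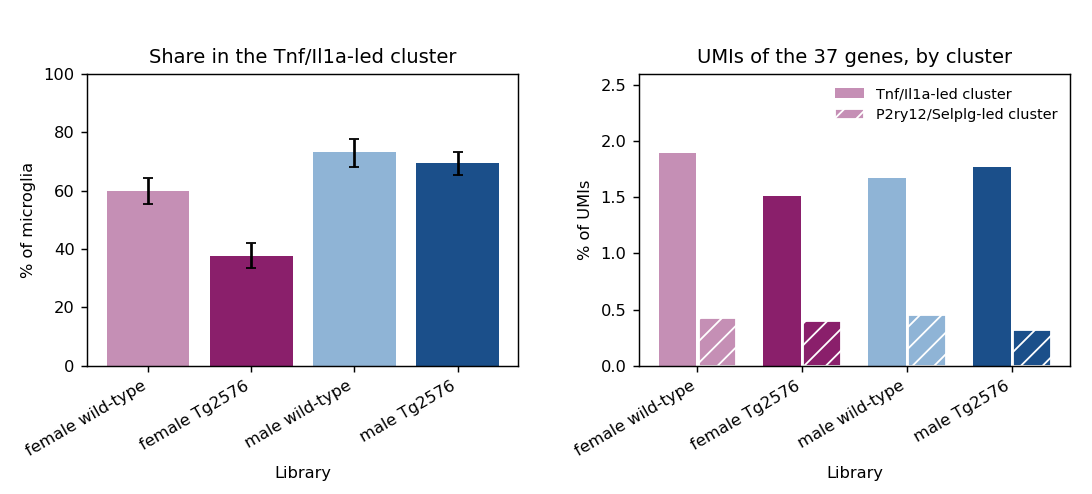
Left, percent of microglia in the *Tnf* cluster in each library, with bars for the Clopper-Pearson 95% interval. Right, percent of the UMIs of each cluster that belonged to the 37 members, with 1 bar per library and cluster. The share of cells is lowest in the female Tg2576 library at 37.7%, and the members take 1.51% to 1.895% of the UMIs of the *Tnf* cluster against 0.313% to 0.455% of the *P2ry12* cluster.

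Within the *P2ry12* cluster the pattern was different. The summed ratio was -0.11 (-0.23 to 0.01) in females and -0.54 (-0.73 to -0.35) in males. There, 4 of 18 members in females (*Il1b*, *Nfkbiz*, *Tnf* and *Tnfaip3*) had a ratio of -0.5 or lower, against 16% of genes, and 6 of 12 in males (*Ccl3*, *Ccl4*, *Cd83*, *Nfkb1*, *Nfkbia* and *Nfkbiz*), against 16.5%. *Nfkbia* in this cluster stood at 884, 778, 932 and 393 CPM and *Cd83* at 201, 149.6, 154 and 49.2 CPM, with the male Tg2576 library lowest in both. *Plek* stood at 761, 742, 720.2 and 569 CPM.

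Some members kept their pattern within the *Tnf* cluster and others did not. *Il1a* there stood at 813, 292, 449 and 407 CPM and *Icam1* at 669, 405, 819 and 717 CPM, both lowest in the female Tg2576 library as in all microglia. *Ccl3* at 672, 855, 779 and 870.2 CPM and *Ccl4* at 1479.7, 1637, 1649.9 and 1716 CPM were instead lowest in the female wild-type library. *Csf1* stood at 252, 182, 166 and 120.2 CPM and *Ccl12* at 104, 68.9, 211 and 260.2 CPM. In this cluster alone edgeR called 0 of 27 members by genotype (7 at an unadjusted p under 0.05, against 485 of 6320 genes). Of all genes tested there, 0.111% were called lower and 0.0633% higher in Tg2576. By sex it called 1 member higher in males, *Ccl12* by 1.33, against 1.17% of genes, and 2 lower, *Il1b* and *Plek*, against 1.55%. The list of immediate early and stress genes stood at 43073, 48171, 46409 and 51829 CPM in this cluster, where the female Tg2576 library was not the lowest. In the *P2ry12* cluster the same list was lower in every library, at 12289, 9589, 12782 and 9886 CPM. There the female Tg2576 library was the lowest, so the clusters differed in these genes as well as in the members.

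At the level of single cells, each microglial cell was thinned to 500 UMIs so that libraries of different depth could be compared, which left 436 of 457, 443 of 515, 325 of 347 and 474 of 538 cells. The median cell held 5, 3, 6 and 5 member UMIs. Cells without any made up 10.1%, 17.8%, 8.92% and 9.49% of microglia, and the tenth of cells with the most held 27.8%, 35.1%, 27.2% and 28.5% of member UMIs. Most microglia of each library thus held at least 1 member UMI.

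A UMI of *Nfkbia* was found in 54.8%, 41.5%, 62.2% and 62.7% of thinned microglia, and in 69.4%, 52.8%, 72.6% and 66.7% before thinning. For *Il1a* the shares were 19.04%, 5.87%, 13.2% and 13.1% after thinning and 33.5%, 10.9%, 26.8% and 20.1% before, and for *Tnf* they were 12.2%, 4.74%, 12.3% and 13.7% after thinning. *Il1b* was found in 9.86%, 2.71%, 5.23% and 5.27% and *Ccl4* in 24.8%, 18.96%, 27.4% and 24.1% of thinned cells. As background, the thinned shares of *Ccl3*, *Ccl4*, *Il1a*, *Il1b* and *Tnf* were at most 1.44% in astrocytes and 1.32% in oligodendrocytes, and at most 2.44% and 3.90% before thinning, with a median depth of 859 to 1239 UMIs per astrocyte. The microglial shares given for *Ccl4*, *Il1a*, *Il1b* and *Tnf* lay above the background of their own scale. *Nfkbia* was found in 3.13% to 7.63% of thinned astrocytes and 5.10% to 9.21% of thinned oligodendrocytes, and in 35.6% to 48.3% of thinned endothelial cells.

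Some pairs of members were detected in the same cells. *Ccl4* was found in 61.7%, 56.2%, 57.1% and 64.5% of microglia with a UMI of *Ccl3*, and in 18.9%, 11.6%, 20.2% and 16.3% of those without. The annotated overlap of the 2 genes applies to these shares too. *Nfkbiz* was found in 46.4%, 33.2%, 42.6% and 44.1% of microglia with *Nfkbia* and in 17.3%, 7.34%, 19.5% and 11.9% of those without. Within the *Tnf* cluster alone these shares of *Nfkbiz* lay closer together, at 54.8%, 43.3%, 43.8% and 47.1% with *Nfkbia* and 42.3%, 23.9%, 35.9% and 29.9% without. *Ccl4* in that cluster was found in 57.9% to 68.2% of cells with *Ccl3* and 21.3% to 25.6% of those without. For *Il1b* the shares over all microglia were 27.7%, 7.69%, 6.98% and 12.9% with *Il1a* and 5.67%, 2.40%, 4.96% and 4.13% without. The cells with *Il1a* were few, 83, 26, 43 and 62 over all microglia and 76, 22, 41 and 57 within the *Tnf* cluster. On these cells the gap between the shares of *Il1b* was widest in the female wild-type library and narrowest in the male wild-type library, both over all microglia and within the *Tnf* cluster. The libraries were not compared by a test.

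Outside microglia, most members were low. In 20 of 26 members the lowest microglial library lay above the highest library of every cell type but macrophages, against 12.3% of 4063 genes. When macrophages were included, the count was 3 of 26, *Gpr84*, *Il1a* and *Tnf*, against 6.79%. Both counts describe clustered cells and are not a test.

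**Figure D4:**
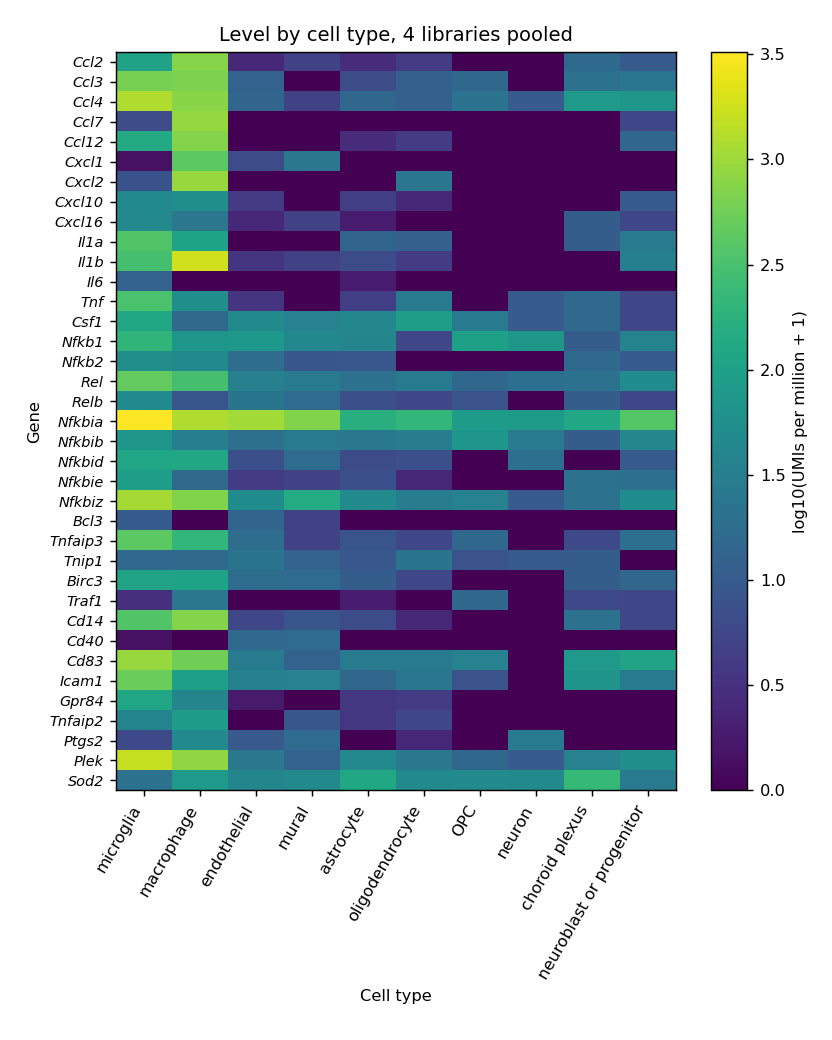
Level of each of the 37 members (vertical axis) in each cell type (horizontal axis), with colour for log10 of CPM plus 1 of the 4 libraries together. Microglia and the macrophage-like cluster hold most of the high values, *Nfkbia* is also high in endothelial and mural cells, and *Sod2* reaches 224 CPM in the choroid plexus.

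*Nfkbia* was the member most widely expressed. In endothelial cells it stood at 844, 1125, 1149.9 and 1047 CPM, and in mural cells, the pericytes and smooth muscle of vessels, at 654, 355, 826 and 845 CPM. The endothelial level was 26.9%, 57.96%, 30.6% and 25.1% of the microglial one in the same library, whereas the list of microglial markers reached between 1.09% and 1.89% in endothelial cells. *Nfkbia* was lower in astrocytes, at 91.4, 208, 198 and 180.0 CPM, and in oligodendrocytes, at 91.3, 274, 187 and 257 CPM. Without the cells called doublets the oligodendrocyte level was 95.0, 134, 115 and 68.7 CPM and the astrocyte level 93.8, 104, 123 and 146 CPM, whereas the endothelial level stayed between 862 and 1152 CPM. *Sod2*, the mitochondrial antioxidant enzyme, stood at 110.3, 62.3, 114 and 189 CPM in astrocytes, whereas its microglial level was 21.0, 22.4, 18.8 and 15.005 CPM, and over the 4 libraries together it reached 224 CPM in the choroid plexus.

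As a description beside stray microglial RNA, each member's level in another cell type was set against the share that the microglial marker list reached there. Members with at least 20 UMIs in the other type and 100 in microglia were considered. The limit of 20 UMIs favours members already above that share, and all genes were not counted by this rule. The counts are therefore not a test. In endothelial cells 11 of 13 such members exceeded that share in all 4 libraries, among them *Nfkbia*, *Nfkb1*, *Rel*, *Csf1*, *Icam1* and *Tnfaip3*. In astrocytes 4 of 8 did (*Csf1*, *Nfkb1*, *Nfkbia* and *Nfkbib*), in oligodendrocytes 2 of 2 (*Csf1* and *Nfkbia*), in mural cells 2 of 2 (*Nfkbia* and *Nfkbiz*), in the choroid plexus 1 of 1 (*Nfkbia*) and in neuroblasts or progenitors 0 of 2. Without called doublets the same members exceeded the share in the first 4 of these types, of 6 rather than 8 considered in astrocytes. *Sod2*, which had too few microglial UMIs to be counted here, stood in astrocytes at 278% to 1262% of its microglial level, from 142 UMIs. *Csf1* in oligodendrocytes, at 70.3, 105, 56.2 and 119.9 CPM from 58 UMIs, reached 39.4%, 117%, 39.3% and 131% of its microglial level. *Il1a* had 0 UMIs in endothelial and mural cells, and *Tnf* had 3 in endothelial cells and 0 in mural cells.

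No member passed the test by genotype or sex in any cell type other than microglia that had enough cells to be tested. In endothelial cells edgeR called 0 of 6 members by genotype, against 0.0724% of all genes, and 0 by sex, against 0.181%, with 0 at an unadjusted p under 0.05 in either. In astrocytes it called 0 of 6 by genotype, against 0.0565%, and 0 by sex, against 1.11%, with 1 at an unadjusted p under 0.05 in each, *Nfkbiz*. In oligodendrocytes it called 0 of 2 by genotype, against 0.324%, and 0 by sex, against 2.76%, with 1 at an unadjusted p under 0.05 by genotype, *Nfkbia*, at a log2 difference of 0.91. Without the called doublets that difference was -0.07 and with no mitochondrial limit it was 1.31 (edgeR adjusted p = 0.0204), so both its sign and its call depended on which cells were kept. *Csf1* in oligodendrocytes, where both Tg2576 libraries lay above both wild-type libraries, had a log2 difference of 0.82 (edgeR adjusted p = 0.697), and 0.74 without the called doublets. In mural cells 0 of 2 members were called by genotype, against 0.268% of all genes, and by sex, against 0.671%, with 0 at an unadjusted p under 0.05 in either. In neuroblasts or progenitors the 1 member tested, *Nfkbia*, was not called by genotype, against 0% of all genes, or by sex, against 0.101%, and had an unadjusted p under 0.05 by sex. DESeq2 called 0 members in each of these 10 comparisons. With at most 6 members tested in a type, the precision was limited by the low counts.

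The chemokines *Ccl2*, *Ccl7*, *Cxcl1* and *Cxcl2*, which were low in microglia, stood highest in the macrophage-like cluster of 18, 33, 26 and 29 cells. *Cxcl10* and *Cxcl16*, also low in microglia, had only 7 and 3 UMIs in this cluster. Among genes with at least 20 UMIs in this cluster, the lowest macrophage-like library lay above the highest microglial library in 5 of 15 members. These were *Ccl2*, *Ccl7*, *Cxcl1*, *Cxcl2* and *Il1b*, against 18.6% of 1180 genes. *Ccl7*, *Cxcl1* and *Cxcl2* were counted only through their UMIs in this cluster. The reverse, among genes with at least 100 microglial UMIs, was found for 5 of 26 members, against 17.4% of 4063 genes. Those members were *Csf1*, *Gpr84*, *Il1a*, *Nfkb1* and *Tnf*. The limits differ, so the counts cannot be set against each other, and both describe clustered cells and are not a test. The cluster was named from 9 macrophage markers, but it was mixed. Of its 106 cells, 26 held at least 3 UMIs of macrophage markers, 19 at least 3 of ependymal markers, 3 at least 3 of neutrophil markers and 58 none of these. Neutrophil markers summed to 129.6, 60.4, 105 and 16676 CPM, so that the male Tg2576 library also held neutrophil transcripts.

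In this cluster *Cxcl2* stood at 1642, 514, 237 and 1633 CPM and *Cxcl1* at 1080.2, 695, 52.7 and 146 CPM. *Ccl7*, a monocyte attractant, stood at 1555, 363, 527 and 1429 CPM, *Ccl2* at 1512, 665, 185 and 904 CPM and *Ccl12* at 1599, 604, 105 and 933 CPM. The neighbouring chemokines *Ccl2*, *Ccl7* and *Ccl12* had the same highest library, the female wild-type, and *Ccl2* and *Ccl12* the same lowest, the male wild-type. *Ccl4* stood at 129.6, 574, 1397 and 729 CPM, highest in the male wild-type library. *Il1b* stood at 2247, 2206, 1424 and 1516 CPM. It was the highest chemokine or cytokine of the cluster in both female libraries and in the male wild-type library, there just above *Ccl4*. In the male Tg2576 library *Cxcl2* was higher.

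These levels came from few cells. *Ccl7* was found in 13 cells, *Cxcl2* in 14, *Il1b* in 15 and *Cxcl1* in 10, and 1 cell held 31.6% of the UMIs of *Ccl2*, 32.5% of those of *Ccl7* and 20.8% of those of *Cxcl2*. Neutrophil-marker cells held 10 of the 120 *Cxcl2* UMIs and 18 of the 231 *Il1b* UMIs, and none of *Ccl2*, *Ccl7* or *Ccl12*. In the 26 cells with macrophage markers, *Ccl7* stood at 2944 CPM, *Il1b* at 2867 CPM, *Ccl2* at 2428 CPM and *Cxcl2* at 2195 CPM, each above its level in all microglia. Libraries of this cluster were not compared by a test, because 1 library had under 20 cells.

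**Figure D5:**
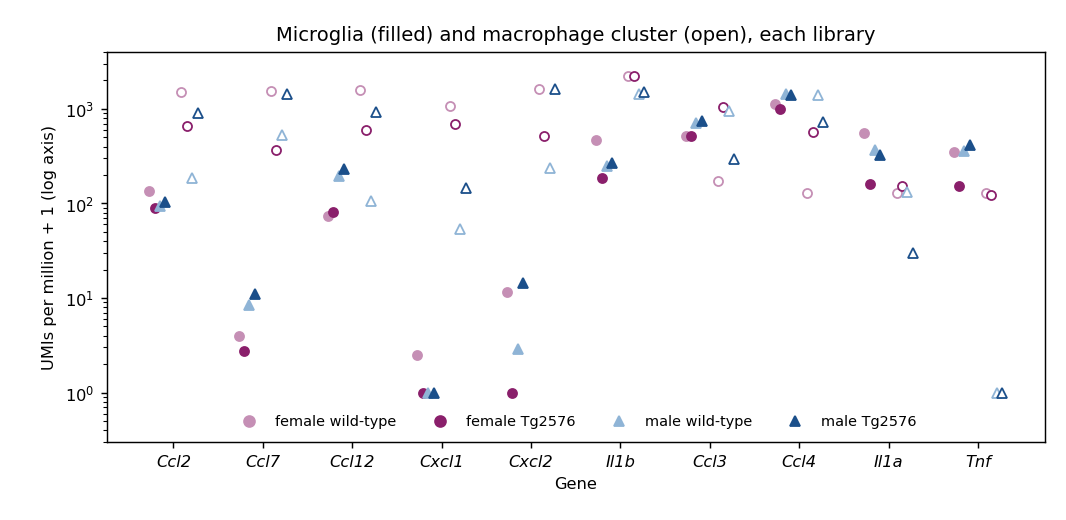
Level of 10 chemokines and cytokines in microglia (filled) and in the macrophage-like cluster (open), in CPM plus 1 on a log axis, with 1 point per library. Open points lie above all filled points of the same gene for *Ccl2*, *Ccl7*, *Cxcl1*, *Cxcl2* and *Il1b*, and below all of them for *Il1a* and *Tnf*.

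Upstream of the members, 18 receptors and sensors of the pathway and 20 genes of signal transmission were examined from lists in microglia. Of 10 receptors tested, edgeR called 0 by genotype (1 at an unadjusted p under 0.05) and 2 by sex, both higher in males. Of all 7594 genes, 21 were called by genotype and 366 by sex, and 666 and 1422 had an unadjusted p under 0.05. *Tlr2*, the receptor of bacterial lipopeptides, stood at 43.5, 49.9, 126 and 108 CPM and differed by 1.31 on the log2 scale. *Ccr1*, a receptor of Ccl3, stood at 70.4, 82.6, 173 and 130.04 CPM and differed by 0.96. Of 15 transmission genes tested, 0 were called by genotype (3 at an unadjusted p under 0.05) and 0 by sex (2), and those with the most UMIs were *Tab2*, *Irak1* and *Otulin*. *Tab2*, an adaptor of the kinase TAK1, stood at 329.7, 363, 326 and 282 CPM. DESeq2 called 0 genes of either list in either comparison, with 0 at an unadjusted p under 0.05 by genotype and, by sex, 4 receptors and 0 transmission genes.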

How the data were processed

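Raw UMI counts for every gene and barcode were deposited by the authors, who obtained them with a Drop-seq pipeline, and the submitters' processing notes name mm10 and Seurat 3.1.4. The aligner is not given in the sources used here. Each table was 1 library, and 0 columns of other samples were present. Barcodes with 200 to 7000 genes and at most 20% mitochondrial UMIs were kept, since the 5% limit of the study's methods removed most cells. SCTransform in Seurat 5.3.0 (sctransform 0.4.2, R 4.3.3) with 2500 variable genes, 19 components and a resolution of 0.5 gave the clusters. Members, wider pathway genes, mitochondrial and sex-linked genes, *App* and *Prnp* were left out of the variable genes, and immediate early genes were not. A cluster was named where at least 3 listed markers, and 50% of the list, were raised 2-fold. Doublets were not removed from the main results.

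For each cell type, UMIs were added up by library. Ratios have exact conditional binomial, levels exact Poisson and shares exact Clopper-Pearson 95% intervals, for counting error only (Python 3.11.15 with pandas 2.3.3, numpy 2.4.6 and scipy 1.17.1). A ratio was formed from 20 UMIs per sex upward. Types with at least 20 cells in each library were tested with edgeR 4.0.16 (filterByExpr, TMM, quasi-likelihood test on sex and genotype, Benjamini-Hochberg, threshold 0.05), which was tested on simulated data. Alternatives were DESeq2 1.42.0, DESeq2 size factors, no filter, no covariate, leaving out each library (then also without the covariate), no mitochondrial limit or one of 5% or 10%, a minimum of 500 genes per cell, all variable genes, resolution 1, removal of doublets called by Scrublet in scanpy 1.11.5, scaling by TMM, scaling without *Malat1* and mitochondrial UMIs, and thinning. Fits of single clusters were added after seeing the data. A member's value is given in every library where it had at least 100 UMIs in a cell type; where it had fewer, values are given only for genes a result turned on. Of the wider lists, called genes or the 3 with the most UMIs are named. The members and lists were chosen with earlier results of these data known. The human and other mouse data of the study were not analysed here.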

Additional observations from a re-analysis of the deposited data

Results flagged for a closer look

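In 13 cases, 9 in whole cell types and 4 within the *Tnf* cluster of microglia, the ratio of Tg2576 to wild-type pointed one way in females and the other way in males, with neither 95% counting interval reaching 0. Each group was 1 library, so the difference between the sexes was not tested in any of them. The share of all genes that meet the same rule was not counted, so 13 cannot be called many or few. Over all microglia this held for *Nfkbia*, whose log2 ratio was -0.69 for females and 0.15 for males. Within the *Tnf* cluster it held for *Nfkbia* with -0.31 in females and 0.27 in males, *Nfkbiz* with -0.38 and 0.18, *Cd83* with -0.35 and 0.23, and *Tnf* with -0.77 and 0.30. In the macrophage-like cluster *Ccl2* had -1.19 in females and 2.29 in males, *Ccl7* -2.10 and 1.44, *Ccl12* -1.40 and 3.14, and *Cxcl2* -1.68 and 2.78. *Nfkbia* there had -1.94 and 0.79. The signs were turned for the other pair of chemokines of that cluster, *Ccl3* with 2.61 in females and -1.70 in males and *Ccl4* with 2.15 and -0.94. These values of the macrophage-like cluster rest on 18 to 33 cells per library, where 1 cell held up to 38% of a gene's UMIs, and neutrophil markers were high in the male Tg2576 library alone. In astrocytes *Csf1* had ratios of 1.61 for females and -1.55 for males, on 20 and 26 UMIs.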

How the results depend on the processing

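No paired analysis was possible because each group was 1 library and the labels give no replicate numbers. The 2 members called by genotype in microglia became 0 with DESeq2, no covariate, at least 500 genes per cell or either cluster alone, 1 at the 5% mitochondrial limit, 4 with no filter or the 10% limit, 5 with no mitochondrial limit, 6 with all variable genes, resolution 1 or no doublets, and 7 with DESeq2 size factors. Fits without 1 library also lose the covariate, and there the count was 0 to 0, as with no covariate on all 4 libraries. The 21 genes called in all became 1, 44 (size factors), 0 (no covariate), 8 (5% limit), 38 (no limit), 2 (500 genes), 41 (all variable genes), 39 (resolution 1), 41 (no doublets), 11 (*Tnf* cluster) and 0 (*P2ry12* cluster), and 0 to 4 without 1 library. The 7 members called by sex became 1 with DESeq2 or no covariate, 4 with 500 genes, 3 and 0 in the clusters, and 2 to 9 without 1 library. The 366 genes became 49, 42 (no covariate), 216 (5% limit), 172 and 41 in the clusters, and 63 to 188 without 1 library. In oligodendrocytes 1 of 2 members, *Nfkbia*, was called by genotype with no mitochondrial limit, against 12 of 3045 genes. In neuroblasts or progenitors 2 of 10 members, *Cxcl1* (-4.92) and *Il1b* (-2.34), were called lower in males with all variable genes, against 6 of 1766 genes. With that setting the cluster held 216 cells and not 113 and also met the rule for macrophage markers. The other fits outside microglia called 0 members. The cause of these changes was not tested.

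The summed ratio in females, -0.67, was -0.43 at the 5% limit, -0.59 at the 10% limit, -0.73 with TMM, -0.33 in the *Tnf* cluster and -0.11 in the *P2ry12* cluster. In males, -0.01 became 0.0693 (5% limit), -0.0638 (thinned), 0.0825 and -0.54. Members at -0.5 or lower in females numbered 12 of 27 in the *Tnf* cluster and 4 of 18 in the *P2ry12* cluster, against 14.9% and 16% of genes. In males they numbered 2 of 27 and 6 of 12, against 13.8% and 16.5%. Members at -0.5 or lower in both sexes numbered 4 after thinning and 0 and 1 in the 2 clusters. The share of all genes was not counted for these last 3 values, so they cannot be called many or few. Signs turned in the *P2ry12* cluster for the genotype difference of *Il1a* (0.0681), the sex differences of *Cd83* (-0.90), *Nfkbia* (-0.43), *Nfkbiz* (-0.18) and *Tnf* (-0.60), the female ratio of *Birc3* (0.0704) and the male ratio of *Nfkbia* (-1.24). The female ratio of *Ccl2* was 1.07 at the 5% limit, 0.0412 after thinning and 0.88 in the *P2ry12* cluster, and that of *Ccl4* 0.15 and 0.16 in the clusters. The 5% limit kept few cells of the female libraries. Depth limited the 11 members with under 100 microglial UMIs.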
